A study of Mus musculus with 7 samples.

Results

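In mouse embryonic stem cells (ESCs), 1016 of 22704 promoters with a RefSeq identifier (4.47%) had high Flag ChIP-seq signal for Hdac6 together with Tip60 signal near or below the background and p400 signal under a limit that most promoters met, and these promoters of 958 genes are described here. They were selected on measured values, the average coverage from −500 to 500 bp around the transcription start site (TSS) with both factors present. A row of the data, which is 1 TSS, was kept where Hdac6 coverage was at least 0.2 ppm (coverage scaled to the depth of each sample) and at least that of the untagged control, Tip60 coverage was below 1.2 times the untagged control and p400 coverage was below 0.3 ppm. Of the 5560 Hdac6-high rows, which met both Hdac6 conditions, the remaining 4544 failed the Tip60 condition, the p400 condition or both, and they serve as the comparison below under the name other Hdac6-high promoters. Among the selected rows, 101 had another selected TSS within 1000 bp and so shared reads with it.

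Each condition was measured in 1 sample of E14 ESCs. Tip60-H3F ESCs and Hdac6-H3F ESCs carry a histidine and Flag tag on the endogenous protein, and both were precipitated with the Flag-M2 antibody. Tip60-H3F cells had received either the GFP KD or the Hdac6 KD, and Hdac6-H3F cells either the GFP KD or the Tip60 KD. Wild-type ESCs without a tag gave the background of the antibody, and endogenous p400 was precipitated upon GFP KD and Hdac6 KD from ESCs for which the labels give no tag. The GFP KD is the control knockdown, and all knockdown samples were taken 72 hr after infection. The title of the Hdac6 ChIP sample upon Tip60 KD gives Tip60 KD, whereas its genotype entry gives Hdac6 KD; the title was followed. The files hold no expression values, so the knockdowns and the cell type were not checked against transcripts.

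Tip60-p400 is a chromatin complex in which the Tip60 subunit acetylates the tails of histones H2A and H4 and the p400 subunit is a remodelling ATPase that exchanges histone H2A variants. The complex is required for the identity of ESCs. Hdac6 is a deacetylase best known from the cytoplasm, where it acts on tubulin and Hsp90 and binds ubiquitin. The study asked how Hdac6 relates to Tip60-p400 in ESCs.

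The sequences just upstream of the TSS are shown first, because the values below are also given by CpG content, which the selection did not use. A promoter is called CpG-rich here where the sequence from −500 to 500 bp had a GC content of at least 55% and a ratio of observed to expected CpG of at least 0.65, limits set after the values had been seen. Printed are 7 selected promoters, 3 CpG-rich and 4 CpG-poor, from among those with the highest Hdac6 coverage upon Tip60 KD in their class and no annotated exon in the printed stretch. Each is the 150 bp upstream of the TSS in mm9, 5′ to 3′ in the direction of the gene, with CpG steps in capitals. The CpG-rich promoters are those of Tprgl, Klf9 and Kifc3.
Tprgl, chr4:153534794-153534943, minus strand: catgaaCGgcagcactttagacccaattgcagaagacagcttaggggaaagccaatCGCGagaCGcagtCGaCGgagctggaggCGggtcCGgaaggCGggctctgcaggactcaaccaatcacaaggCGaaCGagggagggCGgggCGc
Klf9, chr19:23215566-23215715, plus strand: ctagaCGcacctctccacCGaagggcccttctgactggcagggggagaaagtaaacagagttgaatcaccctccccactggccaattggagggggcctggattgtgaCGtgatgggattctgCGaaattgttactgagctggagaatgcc
Kifc3, chr8:97666441-97666590, minus strand: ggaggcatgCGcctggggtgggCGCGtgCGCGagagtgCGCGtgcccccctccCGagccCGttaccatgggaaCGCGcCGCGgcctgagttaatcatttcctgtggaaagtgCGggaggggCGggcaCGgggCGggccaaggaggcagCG
The CpG-poor promoters are those of 2200002K05Rik, Phf1, Bcl9l and Itgb4.
2200002K05Rik, chr9:15043339-15043488, plus strand: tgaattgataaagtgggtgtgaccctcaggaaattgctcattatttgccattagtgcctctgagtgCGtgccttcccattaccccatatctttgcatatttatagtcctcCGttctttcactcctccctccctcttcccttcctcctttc
Phf1, chr17:27069922-27070071, plus strand: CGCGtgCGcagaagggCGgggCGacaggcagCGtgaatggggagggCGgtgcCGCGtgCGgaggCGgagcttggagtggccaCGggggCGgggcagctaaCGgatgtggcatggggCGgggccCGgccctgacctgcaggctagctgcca
Bcl9l, chr9:44307069-44307218, plus strand: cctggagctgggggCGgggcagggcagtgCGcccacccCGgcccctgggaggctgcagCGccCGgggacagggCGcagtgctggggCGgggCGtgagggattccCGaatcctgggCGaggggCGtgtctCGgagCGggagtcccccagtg
Itgb4, chr11:115854067-115854216, plus strand: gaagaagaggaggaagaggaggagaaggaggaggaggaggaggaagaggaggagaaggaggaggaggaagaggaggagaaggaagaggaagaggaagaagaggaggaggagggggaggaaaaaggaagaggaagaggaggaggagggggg
The printed stretch held 18 CpG steps at Kifc3, 13 at Tprgl and 4 at Klf9. It held 2 at 2200002K05Rik and 0 at Itgb4, which is a run of purines, but 16 at Phf1 and 13 at Bcl9l, whose wider windows had observed to expected ratios of 0.55 and 0.484. Hdac6 coverage upon Tip60 KD was 0.461 ppm at Tprgl, 0.455 ppm at Klf9 and 0.434 ppm at Kifc3, and 0.531 ppm at 2200002K05Rik, 0.438 ppm at Phf1, 0.391 ppm at Bcl9l and 0.383 ppm at Itgb4. The untagged coverage of Itgb4, 0.317 ppm, was the highest of the selected promoters.

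The depth of these samples limits what a single promoter can show. Normalization was to between 9230000 reads (Hdac6 ChIP upon Tip60 KD) and 31400000 reads (p400 ChIP upon Hdac6 KD), and a RefSeq row held a median of 9 to 21 reads. A coverage of 0.2 ppm corresponded to 15.9 reads in the Hdac6 ChIP upon GFP KD and to 12.7 reads upon Tip60 KD, and a count of that size has an exact Poisson 95% interval of 9.15 to 26 reads and of 6.92 to 22.2 reads. Reads in the Hdac6 files spanned 148 to 149 bp and those in the other files 299 bp, so that 1 read covered more positions in the untagged control than in the Hdac6 ChIP. Counted as reads scaled to depth rather than as coverage, the median of the selected promoters was 3.07 times as high in the Hdac6 ChIP upon GFP KD as in the untagged control, and this ratio was 2 over all RefSeq rows. Intervals given for reads cover counting error only. Intervals for shares treat the rows as independent, although 101 selected rows shared reads with another selected TSS. Without replicates no difference between samples could be tested, and overlap of intervals is not such a test.

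The limit on p400 in the selection was met by most promoters. Coverage of p400 upon GFP KD had a median of 0.24 ppm in the selected promoters and of 0.239 ppm in all RefSeq rows, and 65.9% of all RefSeq rows lay below the limit of 0.3 ppm. Average p400 coverage of the selected promoters rose from 0.183 ppm in the flanks, 1500 to 2000 bp from the TSS, to 0.236 ppm just downstream of the TSS, which is 1.29 times the flank. The same ratio was 1.76 over all RefSeq rows and 2.2 in the other Hdac6-high promoters. The CpG-rich selected promoters, a class defined above, had a median of 0.244 ppm beside 0.33 ppm in all CpG-rich RefSeq rows. The CpG-poor selected promoters had a median of 0.237 ppm beside 0.185 ppm in all CpG-poor RefSeq rows. The selected promoters thus matched all RefSeq rows in median p400 coverage and lay below them relative to the flank. In median coverage they lay below their class among CpG-rich promoters and above it among CpG-poor ones. Tip60 coverage was low in the stricter sense, with a median of 0.141 ppm beside 0.169 ppm in the untagged control, and its average just downstream of the TSS was 0.833 times the flank. These values chose the rows and are given as a description.

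**Figure D1:**
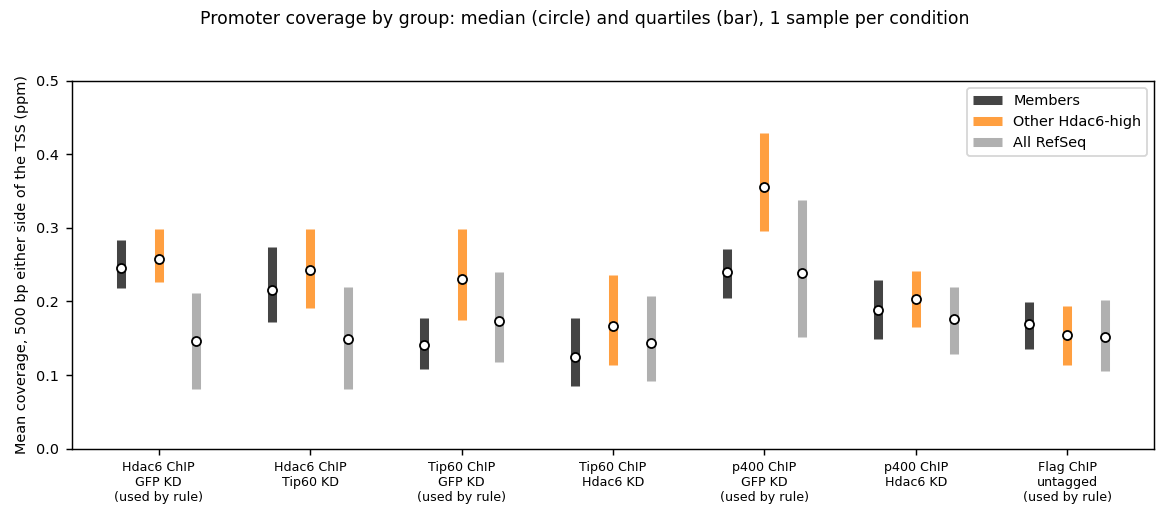
Mean coverage from −500 to 500 bp around the TSS (ppm) in the 7 samples, as the median (circle) and quartiles (bar) over 1016 selected promoters, 4544 other Hdac6-high promoters and 22704 RefSeq rows; the 4 samples marked as used chose the rows. In the samples not used, the selected promoters lay above all RefSeq rows for Hdac6 upon Tip60 KD (medians 0.216 and 0.149 ppm). For Tip60 upon Hdac6 KD they lay below them (0.124 and 0.143 ppm), though not within the CpG-poor class.

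Hdac6 coverage at the selected promoters was also high in the sample that the selection did not use. Relative to the flank it was little above that of all RefSeq rows, as given below. In the Hdac6 ChIP upon Tip60 KD, the median coverage was 0.216 ppm (quartiles 0.172 and 0.274 ppm) in the selected promoters, 0.242 ppm in the other Hdac6-high promoters and 0.149 ppm in all RefSeq rows. Coverage of at least 0.2 ppm was found at 31.1% of all RefSeq rows and at 607 of the 1016 selected promoters, which is 59.7% (exact binomial 95% interval 56.7% to 62.8%). The share was 70% (68.6% to 71.3%) in the other Hdac6-high promoters, so the interval of the selected promoters lay above that of all rows (30.5% to 31.7%) and below that of the other Hdac6-high promoters.

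The level upon Tip60 KD was lower than upon GFP KD, where the rows had been chosen for a high value and had a median of 0.245 ppm. A coverage at least 1.5-fold lower upon Tip60 KD was found at 18.6% of all RefSeq rows, at 23.4% of the selected promoters and at 18.4% of the other Hdac6-high promoters. A coverage at least 1.5-fold higher was found at 20.1% of all RefSeq rows and at 2.46% of the selected promoters. When the Hdac6 conditions were instead read in the Tip60 KD sample, 1135 rows were selected, and their medians were 0.253 ppm upon Tip60 KD and 0.206 ppm upon GFP KD, the reverse order. The rows common to both selections numbered 572, which is 56.3% of the first and 50.4% of the second.

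Hdac6 coverage formed 1 peak downstream of the TSS. In the selected promoters the average was highest at 140 bp downstream upon GFP KD (0.307 ppm) and at 180 bp downstream upon Tip60 KD (0.273 ppm). Upon Tip60 KD the average from −100 to 300 bp was 2.18 times the flank and that from −600 to −200 bp was 1.53 times the flank. The same ratios were 2.78 and 1.87 in the other Hdac6-high promoters, and 2.08 and 1.42 in all RefSeq rows. The flank itself was higher in the selected promoters, at 0.117 ppm, than in all RefSeq rows, at 0.0873 ppm. By CpG class, the ratio from −100 to 300 bp was 2.55 in CpG-rich selected promoters and 2.74 in all CpG-rich RefSeq rows. In the CpG-poor class it was 1.82 and 1.66.

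**Figure D2:**
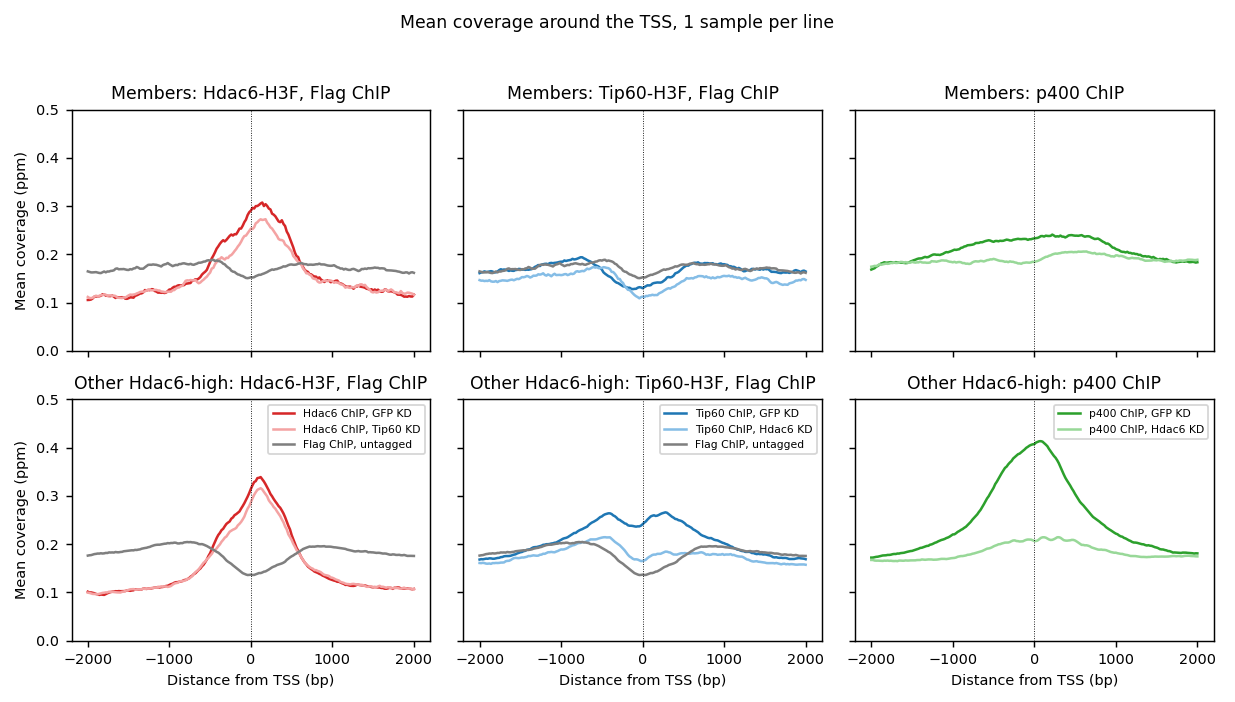
Mean coverage (ppm) against distance from the TSS (bp) for the selected promoters (top) and the other Hdac6-high promoters (bottom), 1 line per sample. Hdac6 formed a peak downstream of the TSS in both groups, while Tip60 upon GFP KD dipped to 0.128 ppm in the selected promoters and p400 upon GFP KD rose to 0.241 ppm there and to 0.413 ppm in the other Hdac6-high promoters.

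Over both CpG classes combined, median Tip60 coverage upon Hdac6 KD was lower in the selected promoters than in all RefSeq rows. The median was 0.124 ppm in the selected promoters, 0.167 ppm in the other Hdac6-high promoters and 0.143 ppm in all RefSeq rows. Of the selected promoters, 59.9% lay below the median of all RefSeq rows. By class, only the CpG-rich selected promoters were lower, with 0.113 ppm beside 0.155 ppm in all CpG-rich RefSeq rows. The CpG-poor selected promoters had a median of 0.143 ppm beside 0.138 ppm in all CpG-poor RefSeq rows. Coverage of at least 1.2 times the untagged control was found at 36.2% of all RefSeq rows, at 17.7% of the selected promoters (15.4% to 20.2%) and at 44.8% of the other Hdac6-high promoters (43.3% to 46.2%). The untagged control enters this share and also entered the selection, so the share is not independent of it, whereas the coverage is. The average profile had its lowest point at −40 bp (0.109 ppm) and its highest at −600 bp (0.174 ppm). The untagged control had its lowest point at the same place, at 0.151 ppm.

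p400 coverage upon Hdac6 KD was near that of all RefSeq rows over both CpG classes combined, and departed from it in opposite directions within them, as given below. Its median was 0.188 ppm, beside 0.203 ppm in the other Hdac6-high promoters and 0.176 ppm in all RefSeq rows. A coverage of at least 0.3 ppm was reached at 3.02% of all RefSeq rows, at 3.84% of the selected promoters (2.74% to 5.21%) and at 5.46% of the other Hdac6-high promoters (4.82% to 6.16%). The average just downstream of the TSS was 1.04 times the flank, compared with 1.24 times in the other Hdac6-high promoters and 1.2 times over all RefSeq rows. A value at least 1.5-fold lower upon Hdac6 KD than upon GFP KD was found at 44.2% of all RefSeq rows, at 30.6% of the selected promoters, which had been chosen with p400 below 0.3 ppm upon GFP KD, and at 69.6% of the other Hdac6-high promoters.

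All conditions of the selection were read once more in the 3 knockdown samples that it had not used, with the same untagged control. They were met by 15.2% of all RefSeq rows, by 460 of the selected promoters (45.3%, 42.2% to 48.4%) and by 34.5% of the other Hdac6-high promoters (33.1% to 35.9%). The p400 condition excluded few rows here, because 3.02% of all RefSeq rows reached 0.3 ppm upon Hdac6 KD. The untagged control entered both this reading and the selection, so these shares are not independent of the selection.

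The selected promoters were a mixture of CpG-rich and CpG-poor promoters. Of the 1016, 539 were CpG-rich (53.1%, 49.9% to 56.2%), compared with 74.4% of the other Hdac6-high promoters (73.2% to 75.7%) and 35.3% of all RefSeq rows (34.6% to 35.9%). Their median GC content of 62.4% was close to the 62.8% of the other Hdac6-high promoters, but the median ratio of observed to expected CpG was 0.68 beside 0.779. When the Hdac6-high rows were divided into 5 equal bins of GC content, the selected promoters made up 26.6% of the bin with the lowest GC content, 12.9% of the middle bin and 20.6% of the bin with the highest, so they were most frequent at both ends.

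**Figure D3:**
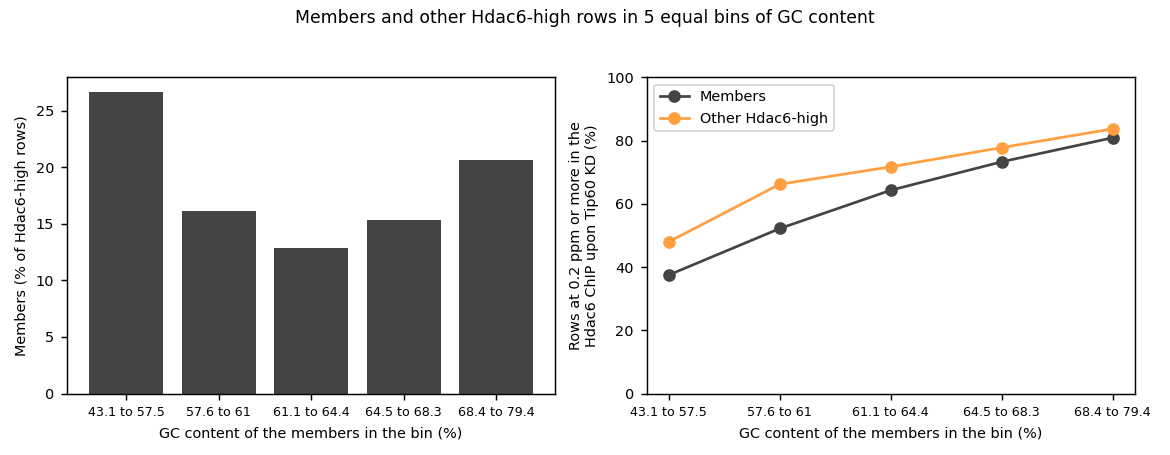
Left, the selected promoters as a percentage of the Hdac6-high rows in each of 5 equal bins of GC content; right, the percentage of rows with at least 0.2 ppm in the Hdac6 ChIP upon Tip60 KD for selected and other Hdac6-high promoters. The right-hand share rose with GC content in both groups, from 37.5% to 80.9% in the selected promoters and from 48% to 83.7% in the others.

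Hdac6 signal upon Tip60 KD differed between the CpG classes. Coverage of at least 0.2 ppm was found at 71.4% of the CpG-rich selected promoters (67.4% to 75.2%) and at 46.5% of the CpG-poor ones (42% to 51.1%). The corresponding shares were 75% and 55.4% in the other Hdac6-high promoters, and 59.4% and 15.6% in all RefSeq rows. The difference between selected and other Hdac6-high promoters was therefore smaller within the CpG-rich class, where the interval of the others (73.5% to 76.5%) overlapped that of the selected ones, than in the CpG-poor class, where it did not (52.5% to 58.3%). A coverage at least 1.5-fold lower upon Tip60 KD than upon GFP KD was found at 14.8% of the CpG-rich and at 33.1% of the CpG-poor selected promoters, beside 11.4% and 22.5% of all CpG-rich and CpG-poor RefSeq rows.

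The CpG classes also differed in the other ChIPs. In CpG-rich selected promoters, Tip60 coverage upon Hdac6 KD fell around the TSS to 0.0848 ppm at its lowest point, and the average just downstream of the TSS was 0.622 times the flank. It was 1.03 times the flank in the CpG-poor ones. The untagged control behaved in the same direction, at 0.813 times the flank in the CpG-rich and 1.13 times in the CpG-poor selected promoters. For p400 upon GFP KD, the CpG-rich selected promoters had their highest average at −580 bp (0.252 ppm) and 0.223 ppm at the TSS, whereas the CpG-poor ones were highest 100 bp downstream (0.249 ppm). Upon Hdac6 KD, p400 reached 0.3 ppm at 0.742% of the CpG-rich (0.203% to 1.89%) and 7.34% of the CpG-poor selected promoters (5.16% to 10.1%), beside 3.47% and 2.78% of all CpG-rich and CpG-poor RefSeq rows. From the lowest to the highest bin of GC content, the untagged median of the selected promoters went from 0.184 to 0.139 ppm. Upon Hdac6 KD, Tip60 went from 0.14 to 0.0931 ppm and p400 from 0.204 to 0.148 ppm. Hdac6 upon Tip60 KD went the other way, from 0.179 to 0.257 ppm. The part of GC content in these values was not tested.

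**Figure D4:**
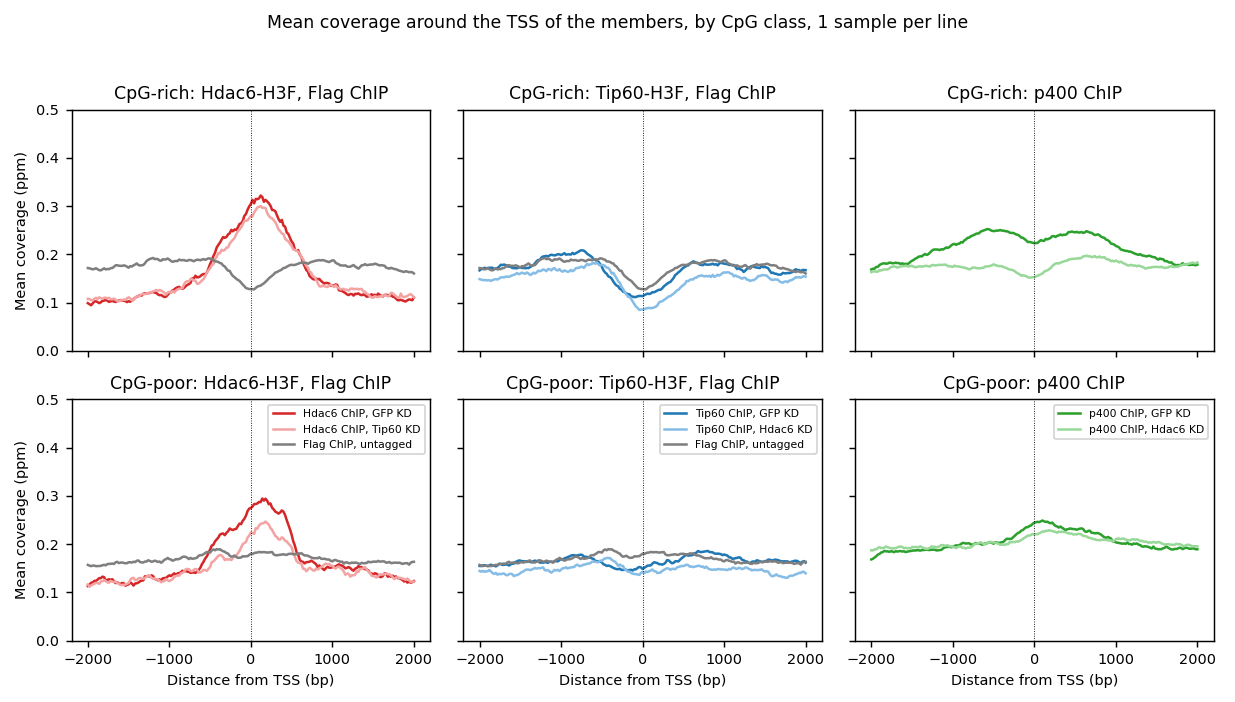
Mean coverage (ppm) against distance from the TSS (bp) for the 539 CpG-rich (top) and 477 CpG-poor (bottom) selected promoters, 1 line per sample. In the CpG-rich class the untagged control and Tip60 dipped at the TSS, where Hdac6 had its peak of 0.322 ppm upon GFP KD and 0.3 ppm upon Tip60 KD; in the CpG-poor class the Hdac6 peak was 0.294 and 0.247 ppm and the untagged control had no dip at the TSS (0.18 ppm).

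Short sequence motifs were searched on both strands from 250 bp before to 50 bp after the TSS in mm9. The GC box GGGCGG was found in 65.8% of the selected promoters, 75.2% of the other Hdac6-high promoters and 45.8% of all RefSeq rows, and within the selected promoters in 83.7% of the CpG-rich and 45.7% of the CpG-poor ones. The ETS-type motif CCGGAAGT was found in 2.46% of the selected promoters (1.6% to 3.61%), 7.66% of the other Hdac6-high promoters (6.9% to 8.47%) and 4.9% of all RefSeq rows. The E-box CACGTG was found in 7.87%, 11.9% and 7.66% in the same order. The Nrf1 motif was found in 0.787% of the selected, 2.13% of the other Hdac6-high and 1.13% of all promoters, and the YY1 motif in 0.886%, 2.44% and 1.34%. The TATA box TATAAA was found in 6.1% of the selected promoters, between the 3.94% of the other Hdac6-high promoters and the 12.5% of all rows, and CCAAT in 31.2%, 32.5% and 36.4%. The cAMP response element TGACGTCA (2.56%, 3.48% and 2.19%) and TGACGCAA (0.984%, 0.726% and 0.612%) differed little between the groups. A match is a description of these letters and not of binding.

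The selected promoters had divergent neighbours less often than the other Hdac6-high promoters. A TSS on the other strand within 1000 bp was present at 8.76% of them (7.09% to 10.7%), at 20.5% of the other Hdac6-high promoters (19.3% to 21.7%) and at 11.5% of all RefSeq rows (11.1% to 11.9%). The share was 10.6% in the CpG-rich and 6.71% in the CpG-poor selected promoters. Where a gene with a selected promoter had further RefSeq TSS rows over 1000 bp away, as 274 genes did, 17 of the 385 further rows (4.42%) were themselves selected, which is near the 4.47% of all RefSeq rows, and their median Hdac6 coverage upon Tip60 KD was 0.157 ppm. On chromosome X, 2 of 915 RefSeq rows were selected and 6 were Hdac6-high. The median coverage on chromosome X was 0.329 to 0.497 times that of the autosomes in all 7 samples, the untagged control included.

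The promoters with the highest Hdac6 signal upon Tip60 KD show what the selection looks like at single genes. Actn2 encodes the muscle alpha-actinin of the sarcomere, and its TSS is at position 12432999 of chromosome 13 on the minus strand. Its Hdac6 coverage reached 0.748 ppm upon GFP KD and 0.765 ppm upon Tip60 KD, the highest of the selected promoters in both samples. With the control knockdown and with Hdac6 KD, its Tip60 coverage was 0.348 and 0.0911 ppm, its p400 coverage 0.294 and 0.187 ppm, and its untagged coverage 0.312 ppm. The Hdac6 values rest on 60 and 48 reads, with exact Poisson intervals of 0.571 to 0.963 ppm and 0.564 to 1.01 ppm. Its untagged coverage was near that of Itgb4, the highest of the selected promoters.

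Tcfl5 encodes a basic helix-loop-helix transcription factor, and its Hdac6 coverage reached 0.46 ppm upon GFP KD and 0.523 ppm upon Tip60 KD. Its remaining values were 0.114 and 0.175 ppm for Tip60 upon GFP KD and Hdac6 KD, 0.201 and 0.146 ppm for p400, and 0.224 ppm for the untagged control. Among the Flag ChIPs, Hdac6 alone was thus above the untagged control at this promoter. The p400 ChIP used another antibody, for which the untagged Flag ChIP does not give the background.

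Cdk9 encodes the kinase of the elongation factor P-TEFb, and Klf9 a Krüppel-like transcription factor. Cdk9 had Hdac6 coverage of 0.377 and 0.465 ppm upon GFP KD and Tip60 KD, Tip60 coverage of 0.197 and 0.141 ppm upon GFP KD and Hdac6 KD, p400 coverage of 0.273 and 0.0944 ppm, and untagged coverage of 0.205 ppm. Klf9 had 0.364 and 0.455 ppm for Hdac6, 0.246 and 0.101 ppm for Tip60, 0.277 and 0.251 ppm for p400, and 0.216 ppm untagged. At both genes the Poisson intervals of Hdac6 coverage upon GFP KD and Tip60 KD overlapped, at 0.255 to 0.539 and 0.312 to 0.668 ppm for Cdk9 and at 0.244 to 0.523 and 0.305 to 0.653 ppm for Klf9. Another 5 of the 10 genes highest upon Tip60 KD were 2200002K05Rik (0.531 ppm), Lrrc50 (0.514 ppm), Hsdl1 (0.487 ppm), Tprgl (0.461 ppm) and Strbp (0.448 ppm). Lrrc50 and Hsdl1 are divergent genes with TSS positions 122099135 and 122099083 on chromosome 8, so their windows hold nearly the same reads. Strbp had the largest ratio between the samples among the 9 genes given here, 2.05, from 0.218 ppm upon GFP KD (0.127 to 0.35 ppm) to 0.448 ppm upon Tip60 KD (0.298 to 0.648 ppm), and these intervals overlap as well.

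**Figure D5:**
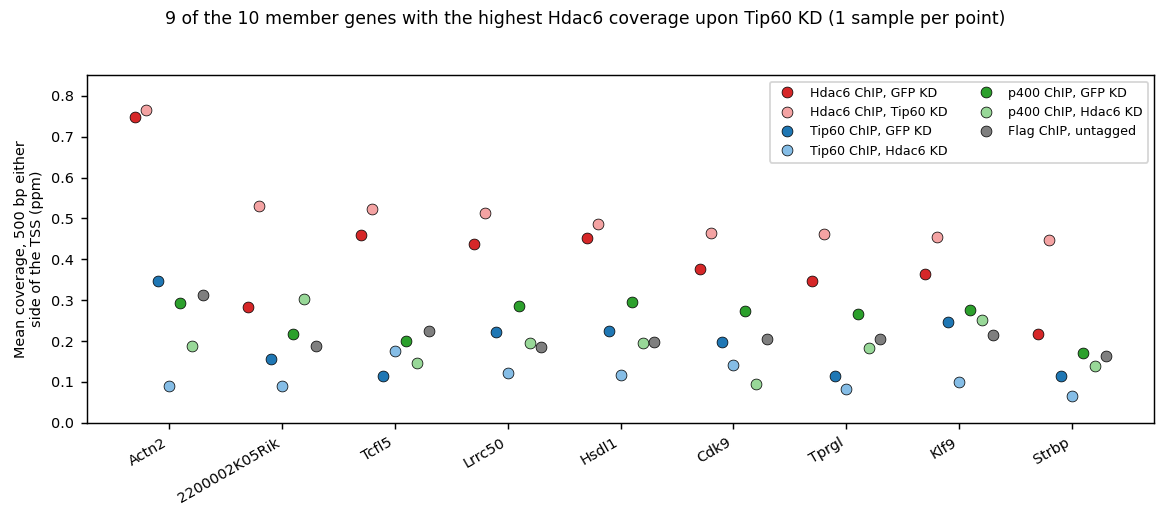
Mean coverage from −500 to 500 bp around the TSS (ppm) of 9 of the 10 selected genes with the highest Hdac6 coverage upon Tip60 KD, 1 point per sample. Hdac6 upon Tip60 KD lay above all Tip60, p400 and untagged values at each of the 9 genes, which followed from how they were chosen. They were picked for high values in that sample, the lowest being 0.448 ppm at Strbp. No selected promoter exceeded 0.395 ppm in the Tip60, p400 and untagged samples.

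The highest Hdac6 coverage upon GFP KD after Actn2 was found at Dnajc11, which encodes a mitochondrial member of the Hsp40 family, with 0.579 ppm upon GFP KD and 0.4 ppm upon Tip60 KD. Card10, a signalling scaffold gene, had 0.492 and 0.385 ppm, and Ywhah, which encodes a 14-3-3 protein, had 0.464 and 0.351 ppm. These 3 were picked for high values upon GFP KD and were lower upon Tip60 KD, and all were CpG-rich. At each of the 3, the Poisson intervals of Hdac6 coverage upon GFP KD and Tip60 KD overlapped.

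The extremes of p400 upon Hdac6 KD divided by CpG class. The 5 lowest genes were Fam49b (0.0575 ppm), Ahr (0.0587 ppm), Arfgef1 (0.0681 ppm), Wtip (0.0694 ppm) and Olfr315 (0.0737 ppm), of which all but Olfr315 were CpG-rich. The 5 highest were Gna11 (0.389 ppm), Ffar3 (0.365 ppm), Fam189b (0.353 ppm), Mrgpre (0.352 ppm) and Ubash3a (0.348 ppm), all CpG-poor. Gna11, which encodes a G protein alpha subunit, had p400 coverage of 0.151 ppm on 13 reads with the control knockdown and of 0.389 ppm on 42 reads with Hdac6 KD. Its Hdac6 coverage was 0.201 and 0.191 ppm upon GFP KD and Tip60 KD, its Tip60 coverage 0.139 and 0.136 ppm, and its untagged coverage 0.132 ppm. Ahr, the gene of the aryl hydrocarbon receptor, had Hdac6 coverage of 0.266 ppm on 21 reads upon GFP KD and of 0.134 ppm on 8 reads upon Tip60 KD.

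Genes were also counted by 21 lists of pathways and families, each beside the 4.47% of all RefSeq rows that were selected. Of 98 rows of cytosolic ribosomal protein genes, 36 were Hdac6-high and 0 were selected, which allows a share of up to 3.06%. Of 77 rows of translation factor genes, 30 were Hdac6-high and 1 was selected, Eef1d. Among 77 rows of mitochondrial ribosomal protein genes, 24 were Hdac6-high and 1 was selected, Mrpl9, with Hdac6 coverage of 0.376 ppm upon GFP KD and 0.402 ppm upon Tip60 KD. The aminoacyl-tRNA synthetases had 12 Hdac6-high rows of 33 and 0 selected, which allows up to 9.09%, splicing factors 32 of 85 and 3 selected, chaperones 33 of 89 and 2 selected, and proteasome genes 8 of 44 and 1 selected, Psmb8 of the immunoproteasome. Respiratory chain genes had 37 Hdac6-high rows of 107 and 5 selected (4.67%).

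The subunits of Tip60-p400 itself had 12 Hdac6-high rows of 29 and 0 selected, which allows a share of up to 10.3%. Of 28 rows of histone deacetylase and sirtuin genes, 8 were Hdac6-high and 1 was selected, Hdac4, with Hdac6 coverage of 0.218 and 0.151 ppm upon GFP KD and Tip60 KD. Of the tubulin, motor and ciliary transport genes, whose products include substrates of Hdac6, 36 of 116 rows were Hdac6-high and 2 were selected, Dynll2 and Tuba8. DNA repair genes had 14 Hdac6-high rows of 81 and 0 selected, which allows up to 3.7%. Replication-dependent histone genes had 1 of 62 and 0 selected, which allows up to 4.84% and so includes the 4.47% of all RefSeq rows. RNA polymerase and Mediator genes had 33 of 109 and 4 selected.

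The lists with a share above 4.47% were ubiquitin enzymes, vesicle traffic, the Hox cluster, pluripotency genes and the respiratory chain. For the Hox cluster and pluripotency genes the share rests on 3 and 1 selected rows. That of the respiratory chain, 4.67%, was near the share of all RefSeq rows. Ubiquitin enzyme genes, which encode conjugating enzymes, ligases and their adaptors, had 25 selected rows of 371 (6.74%) and 137 Hdac6-high rows. Rnf166 had the highest Hdac6 coverage upon Tip60 KD among them (0.4 ppm, with 0.332 ppm upon GFP KD), ahead of Ube2h and Cul3 with 0.319 ppm each and Rnf149 with 0.317 ppm. At Cul3, the scaffold of a ubiquitin ligase, Tip60 coverage was 0.0671 and 0.0512 ppm upon GFP KD and Hdac6 KD and untagged coverage 0.119 ppm. Vesicle traffic genes had 15 selected rows of 226 (6.64%), with Rab6b (0.368 ppm), Rab3il1 (0.359 ppm), Snx3 (0.327 ppm) and Vps4a (0.31 ppm) highest upon Tip60 KD. Selected rows made up 18.2% of the Hdac6-high rows of ubiquitin enzymes and 18.8% of those of vesicle traffic, compared with 18.3% over all Hdac6-high rows.

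The Hox cluster had 3 selected rows of 43, at Hoxc12, Hoxd11 and Hoxc10, and 7 Hdac6-high rows. Of the 20 rows of pluripotency genes 4 were Hdac6-high and 1 was selected, Klf4, a reprogramming factor, with Hdac6 coverage of 0.249 and 0.319 ppm upon GFP KD and Tip60 KD, Tip60 coverage of 0.0891 and 0.136 ppm, p400 coverage of 0.132 and 0.085 ppm, and untagged coverage of 0.114 ppm. Zinc finger genes had 18 selected rows of 436 and solute carriers 14 of 437. Olfactory and other chemosensory receptor genes were rarely Hdac6-high, at 11 of 1337 rows, and rarely selected, at 9 rows (0.673%, beside 4.47%). The 9 made up 81.8% of the 11 Hdac6-high rows, a small count. This share was 18.3% over all Hdac6-high rows and 29.1% over the CpG-poor ones. None of the 9 selected rows was CpG-rich. Olfr279 was one of these 9, with Hdac6 coverage of 0.442 ppm on 35 reads upon GFP KD and 0.236 ppm on 15 reads upon Tip60 KD.

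Of the 9 genes with a RefSeq row here that the study itself examined by ChIP-qPCR or as example loci, 1 had a selected promoter, Nefl, which encodes the light neurofilament protein. Its Hdac6 coverage was 0.21 and 0.191 ppm upon GFP KD and Tip60 KD, its Tip60 coverage 0.154 and 0.161 ppm, its p400 coverage 0.266 and 0.229 ppm, and its untagged coverage 0.166 ppm. Nefl lay close to the Hdac6 limit, and its intervals of 0.122 to 0.336 ppm and 0.0988 to 0.334 ppm include that limit. In the paper, Nefl is an example of a differentiation gene whose Tip60 binding fell strongly downstream of the TSS with Hdac6 KD. The Tip60 values given here rest on 11 reads each and average both sides of the TSS. The part downstream of the TSS was not tested separately at this gene.

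The limits of the selection divided promoters with nearly equal values. The rows nearest the Hdac6 limit of 0.2 ppm were Ntrk2 and Tuba8 inside, both at 0.2014 ppm, and Mmgt2 and Foxe3 outside, both at 0.1997 ppm. For Hdac6 over untagged they were Espn and Sgpl1 inside (both 1.002) and Ikzf4 and Tsen54 outside (0.9959 and 0.9956). For p400 they were 6720456H20Rik and Abi3 inside (both 0.2998 ppm) and Hspb11 and Ppp1r9a outside (both 0.3006 ppm), and for Tip60 over untagged Islr2 and Gldc inside and Atp1b2 and Tcfeb outside, all at 1.2 after rounding to 3 digits. These differences are smaller than the value of 1 read.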

How the data were processed

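ChIP-seq coverage from 7 samples of mouse ESCs was used, with 1 sample per condition, grouped by the sample labels. The values are coverage signal in ppm that the authors deposited every 20 bp from −2000 to 2000 bp around each TSS. Per the study's methods, reads were collapsed by sequence with occurrences kept, aligned to mm9 by bowtie with up to 1 mismatch, given a random place where several fitted, lengthened downstream, cleared of simple repeats, normalized and binned. The processing notes also name CASAVA 1.8.2. The bowtie version and the way of normalizing are not given in the sources used here. Random placement adds reads to repeated sequence, and the longer read span of the other files (299 bp) raises their coverage relative to the Hdac6 files.

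Means from −500 to 500 bp were computed per row and the p400 rows joined by RefSeq identifier and file order. Values are whole multiples of the value of 1 read, from which reads per row were estimated as summed coverage divided by that value and by the read span. Sequence and annotation came from the mm9 reference (GENCODE vM1 exons and starts); 50.4% of the selected TSS positions are annotated transcript starts. Shares carry exact Clopper-Pearson 95% intervals and reads exact Poisson intervals, with a floor of 3 counts for shares of 0. Rows are not replicates, so no test was made. The selected rows, the gene lists and the comparisons were chosen with earlier results of these data known, and the CpG limits after seeing values. Named genes were, with 1 row per gene, the 10 with the highest Hdac6 coverage upon Tip60 KD, the 5 with the highest upon GFP KD, the 5 with the lowest and the 5 with the highest p400 coverage upon Hdac6 KD, the 2 rows on either side of each limit, up to 4 per gene list, and those the study names with ChIP data; the printed sequences followed the rule given with them. A gene that met these rules is not reported here. Alternatives were 9 settings of windows, limits and scaling, and 1 added later. Python 3.11.15, numpy 2.4.6, scipy 1.17.1 and matplotlib 3.10.9 were used, and the scripts were tested on simulated data.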

Additional observations from a re-analysis of the deposited data

How the results depend on the processing

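The number of selected rows stayed within 1.5 times 1016 except with p400 at or below the median of all rows (499) and with Hdac6 of at least 0.3 ppm (171). The share of selected promoters at 0.2 ppm or more in the Hdac6 ChIP upon Tip60 KD was 55.5% with a window of 250 bp on either side and 50.2% with 1000 bp, against 36.6% and 17.3% of all RefSeq rows. It was 56.6% with the untagged control divided by the ratio of read spans, 55.7% with the stricter p400 limit and 80.7% with Hdac6 of at least 0.3 ppm, against 31.1% of all rows in each. The share at 1.2 times the untagged control or more in the Tip60 ChIP upon Hdac6 KD was 21.8% and 13.9% with the narrower and wider windows, against 39.7% and 30.6% of all rows, and 21.5% with the knockdown samples scaled to the flanks, against 40%. It was 15.4% with the ratio of read spans and 11.7% with Hdac6 of at least 0.3 ppm, against 36.2%. The share at 0.3 ppm or more in the p400 ChIP upon Hdac6 KD was 6.35% and 1.66% with the narrower and wider windows, against 6.94% and 0.718% of all RefSeq rows, and 2.34% with Hdac6 of at least 0.3 ppm, against 3.02%. Divergent neighbours were found at 11.7% with Hdac6 of at least 0.3 ppm, against 11.5% of all RefSeq rows. For these changes the cause was not tested. The other 33 of 49 values stayed within the interval of the reported share or within 1.5 times the reported count, among them all 4 with the Hdac6 conditions read upon Tip60 KD, a setting added after seeing the data. Leaving out a sample was not possible with 1 per condition. No paired analysis was possible because each condition has 1 sample and no result comes from a test.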

Other observations

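The Flag ChIP files also hold 14029 rows without a RefSeq identifier, for which p400 was not analysed here. Of these, 1936 met both Hdac6 conditions and 774 (5.52%) met the Tip60 condition as well, compared with 2065 RefSeq rows (9.1%). In the Hdac6 ChIP upon Tip60 KD, 59.2% of the 774 rows were at 0.2 ppm or more, compared with 17.5% of all rows without an identifier and with 65.6% of the 2065 RefSeq rows.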
